A study of Mus musculus with 3 samples.

Results

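Intronless coding sequences are those that a gene carries in 1 uninterrupted stretch of genomic DNA, so that no splice junction falls between the start and the stop codon. Here they were taken as the coding sequences (CDSs) that the deposited tables list in exactly 1 segment of at least 900 nucleotides, in the longest transcript of each protein-coding gene with all 3 regions (both UTRs and a CDS). Clustered protocadherin genes and other genes whose symbols begin with Pcdh were left out, as were the olfactory, vomeronasal and bitter taste receptor genes. This rule kept 891 of 20758 protein-coding genes (4.29%). Another 974 single-segment CDSs were shorter than 900 nucleotides, 1185 long ones belonged to the excluded families, and 17523 genes outside those families had a CDS in several segments. The comparison set was the 11800 multi-segment genes whose CDS reached 900 nucleotides.

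The libraries were ribosome profiles, in which the mRNA fragments protected by ribosomes are sequenced, from primary cortical neurons of embryos of CD-1 mice grown in culture. The WT neurons were left without drug, cycloheximide was added for 2 min to the Chx neurons, and harringtonine for 2 min to the Harr neurons, with a cycloheximide pulse after it. Cycloheximide arrests ribosomes during elongation, whereas harringtonine holds newly initiated ribosomes near the start codon while elongating ones run off. There was 1 library per treatment, pooled from several dishes, and all rinse and lysis buffers held cycloheximide at 100 μg per ml, so that WT was not free of the drug after harvest. The labels give no genotype for any library. They assign treatments in 2 places, while a free-text field names cell fractions of a different experiment, and that field was not used. The Chx, Harr and WT libraries held 35722483, 9754412 and 30219197 aligned reads. With no replicates, intervals here cover counting error only, and no difference between treatments could be set against the spread of repeated libraries. Neuronal markers were present in all libraries: the summed CDS reads of 8 of them came to 5391, 4147 and 5750 per 1000000 aligned reads in Chx, Harr and WT. The 4 astrocyte markers came to 195, 78.8 and 213 per 1000000, the 4 oligodendrocyte markers to 6.52, 2.15 and 5.72, the 4 microglial markers to 2.80, 1.44 and 2.68, and the 4 endothelial markers to at most 0.392, with Mog, Mobp and Tek at 0 reads throughout.

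Most mammalian genes are spliced, and genes with an uninterrupted CDS have a few well-known origins. Some are retrocopies, made when a spliced mRNA is reverse-transcribed and inserted elsewhere, and they may or may not bring a promoter with them. Others are old families that have long done without introns in the CDS, among them many G protein-coupled receptors, the Jun, Sox and POU transcription factors, the polyubiquitin gene Ubb and several mammalian families derived from retrotransposons. Exon junctions laid down by splicing normally mark an mRNA for export and quality control, so these genes reach the ribosome without such marks inside their CDS.

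The sequences around the start codon are shown first, since reads were counted at their 5′ end with an offset of 0 and the footprint of an initiating ribosome therefore counts toward the 5′ UTR. Each line gives 12 bases of the 5′ UTR and the first 18 bases of the CDS, from GENCODE transcripts of the mm10 genome, with the start codon in capitals. Ubb encodes head-to-tail repeats of ubiquitin and was among the most densely read members, and Ndn (chr7:62348396-62348425, plus strand) and Fen1 (chr19:10201061-10201090, minus strand) were among the members with fewer CDS reads in Harr. Arc (chr15:74672355-74672384, minus strand) differed most between Chx and WT. Hnrnph2 (chrX:134604896-134604925, plus strand) and Aldoart2 (chr12:55565280-55565309, plus strand) are intronless relatives of the multi-exon genes Hnrnph1 (chr11:50378319-50378348, plus strand) and Aldoa (chr7:126798097-126798126, minus strand). The window of Ubb crosses a splice junction in the 5′ UTR and has no single interval.
Ubb: taacaggtcaaaATGcagatcttcgtgaag
Ndn: gaaggcgcagacATGtcggaacaaagtaag
Fen1: tcctgtgctaccATGggaattcacggcctt
Arc: accgacgaccagATGgagctggaccatatg
Hnrnph2: ccatcagtcaccATGatgctgagcacagag
Hnrnph1: accgaagggacgATGatgctgggagcagaa
Aldoart2: accaccggcaccATGtcttacccctaccca
Aldoa: gcaaggtgacccATGgcaacgcgcaggcca

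Within these windows, Hnrnph2 and Hnrnph1 shared 14 of 18 coding bases, the start codon included, and 5 of 12 upstream bases. Aldoart2 and Aldoa shared 9 of 18 and 5 of 12, where the longest Aldoa transcript starts at a different codon from the one that Aldoart2 copies.

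Most of the intronless genes were read in these neurons, but fewer than among spliced genes of the same length. At least 10 CDS reads were found for 515 members in Chx (57.8%, against 63.1% of all genes), 440 in Harr (49.4%, against 54.1%) and 517 in WT (58.0%, against 62.5%). Multi-segment genes weighted to the same CDS lengths reached 70.8%, 60.7% and 69.9%. A smaller share of members was detected in every length class: in WT, 47.2% of 379 members of 900 to 1200 nucleotides and 66.1% of the multi-segment genes, compared with 65.0% of 363 and 70.1% at 1200 to 2000 nucleotides. At 2000 to 4000 nucleotides 69.1% of 136 members were detected against 80.7%, and of the 13 members of at least 4000 nucleotides 61.5% were (Wilson interval 35.5 to 82.3) against 84.6%. The members divided into 448 with at least 100 CDS reads over the 3 libraries, 224 with 1 to 99 and 219 with none, and the CDS ratios that follow use the first of these groups. At 4 loci a pair of overlapping genes had the same CDS and the same counts (Adat3 and Gm49322, Rnf26 and Gm49380, Zbed6 and Gm38394, Zbtb9 and Ggnbp1), and each was counted as a member. Where 3 read counts stand together, they are in the order Chx, Harr and WT.

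Detected intronless CDSs had a lower median density than spliced CDSs in each length class under 4000 nucleotides. Over all lengths the median density of detected members was 6.75 reads per kilobase and per 1000000 aligned reads (RPKM) in Chx, 5.73 in Harr and 6.37 in WT, compared with 7.17, 6.62 and 6.83 for multi-segment genes. At 900 to 1200 nucleotides the medians were 8.62, 7.03 and 7.55 RPKM in detected members and 12.4, 8.68 and 11.9 in detected multi-segment genes. With the undetected genes included, the median member lay below spliced genes within 10% of its CDS length by 1.96 on the log2 scale in Chx, 1.73 in Harr and 2.01 in WT. Over members of at least 1200 nucleotides the log2 difference was -0.59, -0.49 and -0.74. With members and spliced genes alike limited to those with under 10% of their 25-base words in other genes, it was -1.23, -0.97 and -1.20. With only genes of at least 100 reads kept, the median member lay below spliced genes by 0.42, 0.39 and 0.33, a set that the minimum itself selects for high counts. All members together took 4.37%, 5.27% and 4.62% of CDS reads in Chx, Harr and WT, with 95% Wilson intervals of 4.36 to 4.38, 5.24 to 5.29 and 4.61 to 4.63. Without the 50 most read genes of all, the shares were 3.35%, 3.29% and 3.37%, in which Harr no longer stood above the others.

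Among the most densely read members in WT were Ubb, Ndn, Vgf, Tspyl4, Scg2, Ubqln2, Pcbp1, Zcchc12 and Zcchc18. Ubb (chr11:62552146-62553063, plus strand) had 52177, 6355 and 51194 CDS reads in Chx, Harr and WT, or 1591, 709.7 and 1845 RPKM, and was lowest in Harr. These counts are of reads left after duplicate removal, to judge by the alignment's name in the file headers. Its CDS is 918 nucleotides long, and 75.2% of its 25-base words recur inside it. Other genes held 88.4% of the words, and the sources used here do not tie these tables to a rule for reads with several alignments. The position of a read within the CDS of Ubb is therefore not known from these counts.

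Vgf and Scg2, which encode secreted precursors of neuropeptides in dense-core vesicles, had a similar density in every library. Vgf (chr5:137030986-137032839, plus strand) was at 859 RPKM in Chx, 834 in Harr and 766 in WT, and Scg2 (chr1:79435151-79437004, minus strand) at 582, 621 and 576. Ubqln2, which carries ubiquitinated proteins to the proteasome, was at 454, 426 and 519 RPKM. The others had a lower RPKM in Harr than in Chx and WT: Ndn (chr7:62348408-62349385, plus strand), an imprinted member of the MAGE family, was at 758, 213 and 783 RPKM, and Tspyl4, a nucleosome assembly protein relative, at 554, 302 and 666. Pcbp1, a poly(C)-binding protein, was at 341, 197 and 371, Zcchc12 at 262, 71.7 and 276, and Zcchc18 at 269, 109 and 268. Zcchc12 and Zcchc18 encode zinc finger proteins related to retrotransposon Gag proteins. RPKM is taken per aligned read, of which fewer lay in CDSs in Harr. Per CDS read, Ndn, Zcchc12 and Zcchc18 lay below spliced genes of their length in Harr against Chx (log2 differences of -0.75, -0.97 and -0.37), Tspyl4 lay at its match (-0.01), Ubb was close to it (-0.07), and Pcbp1 (0.22), Ubqln2 (0.29), Vgf (0.37) and Scg2 (0.51) lay above it.

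**Figure D1:**
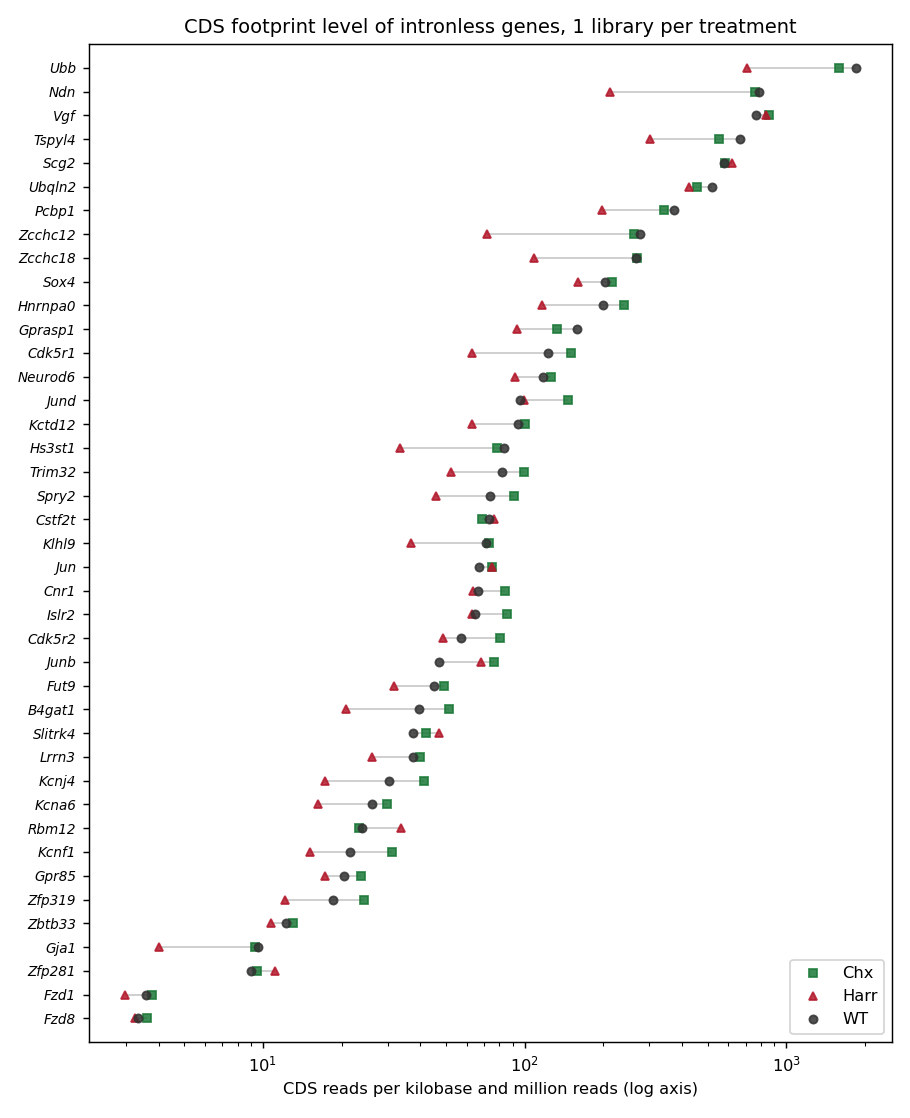
CDS density of 41 intronless genes named for their level or as the most read members of a functional list, in reads per kilobase and per 1000000 aligned reads on a log axis, with green squares for Chx, red triangles for Harr and black circles for WT, 1 library each. Ubb, at 1845 in WT, is the highest point shown, and Harr lies to the left of Chx and WT for most of the genes.

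In CDS reads scaled to the total of each library, the typical intronless gene barely differed between libraries, and it lay slightly above spliced genes of its length under harringtonine. Over 448 members the Harr against Chx ratio had a median log2 value of -0.03, and the members lay a median of 0.10 above the spliced genes within 10% of its length (distribution-free 95% interval of the median 0.05 to 0.18, which describes the spread of genes and not of libraries). Of the 448 genes, 261 (58.3%) lay above their match. Harr against WT gave a median of 0.03, a difference of 0.10 (0.04 to 0.16) and 264 genes (58.9%) above, but with genes matched on GC content as well as length the difference fell to 0.04 (-0.01 to 0.10), an interval that includes 0. Both comparisons use the same Harr library. Chx against WT gave a median of 0.04, a difference of 0.00 (-0.04 to 0.03) and 225 genes (50.2%) above. The match sets held 117 to 1264 genes.

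A gene was called higher or lower where its log2 ratio was at least 1 in size and its exact binomial 95% interval lay beyond 0. Against Chx, 20 members were higher in Harr (4.46%, against 4.64% of all genes tested) and 34 were lower (7.59%, against 13.9%). Among multi-segment genes of at least 900 nucleotides 5.29% were higher and 6.3% lower, and among those matched to the members in length 3.09% and 10.1%. Against WT, 22 were higher (4.91%, against 5.3%) and 31 lower (6.92%, against 14.5%). Between Chx and WT, Arc alone was higher (0.201% of all genes) and no member was lower (0.122% of all genes). With no replicates these calls carry no p-value. Scaling to all aligned reads instead moved the median of all genes from -0.05 to -0.60 in Harr against Chx and from 0.00 to -0.51 in Harr against WT, since 3771901 of the Harr reads lay in CDSs, compared with 20201884 of the Chx and 16665232 of the WT reads. It turned the calls to 2 higher and 106 lower against Chx and to 6 higher and 90 lower against WT, so each direction here is relative to the other CDSs. The balance of calls also turned with other settings: CDSs of at least 1200 nucleotides gave 18 higher and 9 lower against Chx and 21 and 10 against WT, and a pseudocount of 5 gave 24 and 24 against Chx and 33 and 21 against WT.

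The Harr ratio was higher the longer the CDS, in intronless and spliced genes alike. In Harr against Chx the median was -0.34 over 146 members of 900 to 1200 nucleotides, -0.03 over 212 of 1200 to 2000, 0.41 over 84 of 2000 to 4000 and 0.78 over 6 of at least 4000. The multi-segment genes gave -0.48, -0.07, 0.35 and 0.65. Harr against WT gave -0.32, 0.10, 0.46 and 0.71 in members and -0.44, -0.02, 0.43 and 0.77 in multi-segment genes. In Chx against WT the members stayed between -0.10 and 0.07 in every class.

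**Figure D2:**
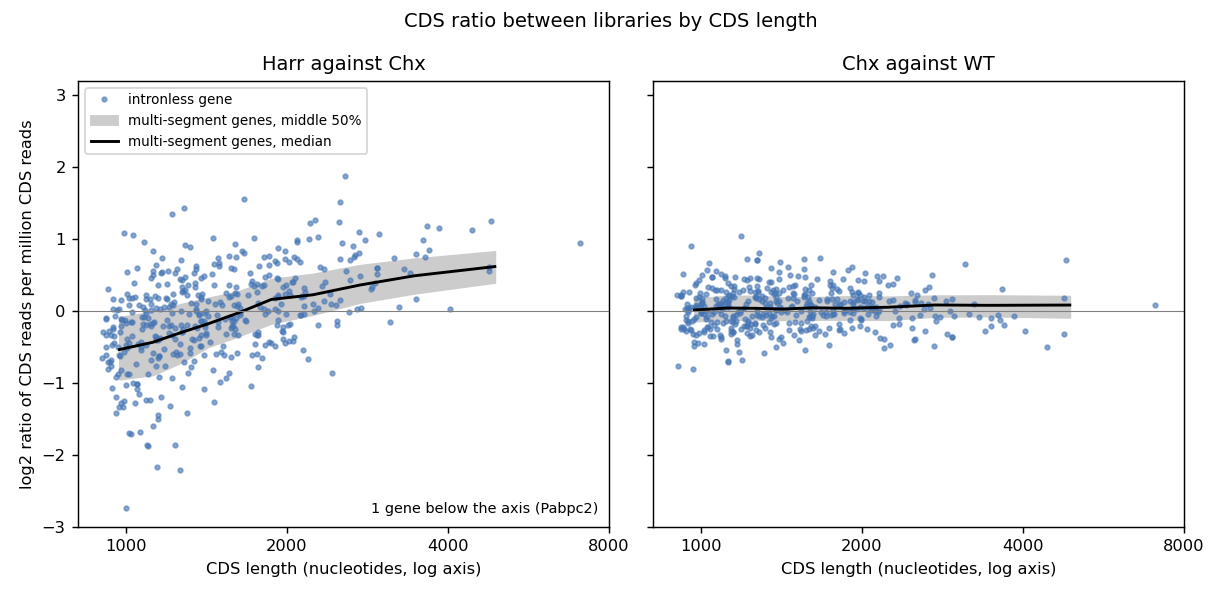
Log2 ratio between libraries of the scaled CDS read count against CDS length in nucleotides on a log axis, for Harr against Chx (left) and Chx against WT (right). Blue points are intronless genes, the black line and the grey band are the median and middle 50% of multi-segment genes, and the points climb with length on the left, from a median of -0.34 at 900 to 1200 nucleotides to 0.41 at 2000 to 4000, but not on the right.

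Some intronless genes had ratios far from 0. The ratios given for them here are not corrected for CDS length. Fen1 (chr19:10199936-10201078, minus strand), a flap endonuclease of DNA replication, had 468, 19 and 333 CDS reads in Chx, Harr and WT, a log2 ratio of -2.17 (-2.95 to -1.54) in Harr against Chx. Its 5′ UTR moved the other way, with 107, 175 and 81 reads. Pabpc2, an intronless relative of the poly(A)-binding protein gene Pabpc1, had 114, 0 and 63 CDS reads in Chx, Harr and WT. Against a floor of 3 counts in Harr its level was at least 7.09-fold lower against Chx and at least 4.75-fold lower against WT. Gm3839, a copy of Gapdh, had 699, 19 and 588 reads (-2.74, interval -3.52 to -2.13), and Aldoart1 956, 38 and 890 (-2.21, -2.74 to -1.76). The CDS of Gm3839 was 99.3% identical to that of Gapdh, so its reads cannot be assigned with certainty. Gapdh, a multi-exon gene, also had few CDS reads in Harr (819, 26 and 631 in Chx, Harr and WT).

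At the other end, Phlda1, a pleckstrin homology-like protein, had 1168, 557 and 711 CDS reads in Chx, Harr and WT, at 1.35 (1.20 to 1.50) against Chx and 1.79 (1.63 to 1.95) against WT. Its 5′ UTR held 0, 3 and 0 reads. Akap5, which anchors protein kinase A at synapses, had 2078, 937 and 2377 reads (1.27, 1.16 to 1.38, against Chx). Rbm12b1, an RNA-binding protein gene, had 270, 144 and 292 (1.52, 1.21 to 1.81). Slitrk2, a synaptic adhesion protein, had 1107, 399 and 784 reads and was higher in Harr than in WT at 1.17 (0.99 to 1.34), and Pou3f1, a POU factor, had 1293, 371 and 706 and stood at 1.22 (1.03 to 1.40).

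The largest group by number was the G protein-coupled receptors, which sense extracellular ligands, with 111 members of which 34 were tested. Their median Harr against Chx ratio was -0.26, 0.06 above the length match, with 2 higher, among them Npbwr1, and 6 lower. Calls in this list and those that follow stand beside 4.64% higher and 13.9% lower over all genes in Harr against Chx, and 5.3% and 14.5% in Harr against WT. Cnr1, the CB1 cannabinoid receptor, was the most read and had 4257, 877 and 2860 CDS reads in Chx, Harr and WT. Gpr85, a conserved brain receptor, had 941, 188 and 687. Neither was called. Gpr3, a receptor with high constitutive activity, had 491, 38 and 300 reads and was lower in Harr than in Chx at a log2 ratio of -1.25 (-1.79 to -0.79). Of the 34 receptors, 26 lay above their match in Chx against WT, with a median difference of 0.17 over all 34, and none was called.

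The leucine-rich repeat proteins, which act as adhesion molecules and receptors at the neuronal surface, had 39 members with 27 tested. None was called in Harr against Chx, where the median was 0.08 and 12 of 27 lay above the match. Islr2 had 6859, 1373 and 4389 reads in Chx, Harr and WT, Slitrk4 3762, 1157 and 2847, and Lrrn3 3022, 543 and 2399. Of the 27, 24 lay above the match in Chx against WT, with a median difference of 0.13 over all 27 and 0 called. The potassium channels, 14 tested of 16, were on the low side of the length match in Harr against Chx in 10 of 14 (median -0.36, difference -0.16). Among them Kcnj4, an inward rectifier, had 1967, 226 and 1230 reads, and the voltage-gated subunits Kcna6 and Kcnf1 had 1688, 252 and 1258 and 1684, 225 and 987. The Frizzled receptors and connexins, 8 tested of 14, had a median of -0.27 and 1 lower call. The Wnt receptors Fzd1 and Fzd8 had 259, 56 and 209 and 264, 65 and 207 reads and Gja1, the connexin of astrocytes, 382, 45 and 333.

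The sulfotransferases and glycosyltransferases, enzymes of the Golgi that build glycans, had 35 members and 22 tested. Here 17 lay above the length match in Harr against Chx (median difference 0.40) and 18 in Harr against WT (0.46), but none was called in the former and 1 was higher in the latter. Hs3st1, a heparan sulfate sulfotransferase, had 2626, 305 and 2364 reads in Chx, Harr and WT, Fut9, a fucosyltransferase, 1901, 334 and 1475, and B4gat1, which acts on dystroglycan, 2100, 231 and 1362.

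Among the neuronal and progenitor transcription factors, 16 tested of 29, 11 lay above the match in Harr against Chx (median difference 0.47) and 2 were lower, Sox2 and Olig2. Sox4 had 10214, 2065 and 8103 reads and Neurod6, a factor of excitatory neurons, 4580, 908 and 3599. Both kept near their overall level, with log2 ratios of 0.12 and 0.09 in Harr against Chx. Sox2, a factor of neural stem cells and glia, had 1756, 143 and 1733 reads and stood at -1.19 (-1.45 to -0.95), and Olig2, a factor of the oligodendrocyte lineage, had 1267, 93 and 1408 and stood at -1.34 (-1.67 to -1.04). These ratios are not corrected for CDS length, and multi-segment genes of 900 to 1200 nucleotides had a median of -0.48. The astrocyte marker sum was also lower in Harr than in Chx (78.8 against 195 per 1000000) and the oligodendrocyte sum too (2.15 against 6.52). Neuronal markers were lower on the same scale, per aligned read, in 7 of 8 cases, among them Stmn2 at 133 against 929 and Tubb3 at 270.4 against 894, while Map2 was higher at 2904 against 2075. The part of cell makeup in the values of Sox2, Olig2, Gja1 and the receptors S1pr1, found on astrocytes and endothelium, and Gpr17, of oligodendrocyte precursors, was not tested. S1pr1 had 159, 10 and 138 reads and Gpr17 61, 3 and 54, and both were called lower in Harr. Fewer cells of a type and fewer reads per cell cannot be told apart in these libraries.

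The zinc finger and BTB proteins, 14 tested of 15, had a median Harr against Chx ratio of 0.31 and no calls. Zfp319 had 1523, 206 and 980 reads, Zfp281 909, 291 and 731, and Zbtb33, which binds methylated DNA, 936, 212 and 748. The KCTD, Kelch, F-box and ubiquitin ligase proteins, 18 tested of 20, had a median of 0.13 and 1 lower call. Trim32, a ubiquitin ligase, had 6997, 1001 and 4861 reads, Klhl9 4837, 667 and 3978, and Kctd12 3522, 606 and 2803. The insulin receptor substrates, Sprouty proteins and other adaptors, 10 tested of 14, had a median of -0.31 and 1 higher call (Irs4). In that list the Cdk5 activators Cdk5r1 and Cdk5r2 had 4969, 568 and 3425 and 3197, 526 and 1915 reads, and Spry2, a feedback inhibitor of growth factor signalling, 3097, 424 and 2118. Only 4 of 5 heat shock members could be tested, and none was called.

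The Pur proteins, hnRNPs and other nucleic acid binding proteins, 15 tested of 18, had the highest list median in Harr against Chx, 0.36, with 12 of 15 above the length match. Rbm12, Rbm12b1 and Rbm12b2 were higher and Pabpc2 was lower. Hnrnpa0 had 7863, 1042 and 5542 CDS reads in Chx, Harr and WT, the cleavage factor gene Cstf2t 4667, 1410 and 4203, and Rbm12 2488, 976 and 2160. The CDSs of the Rbm12 genes are long (2979 nucleotides in Rbm12), and against matched genes Rbm12 lay 0.68 higher.

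The AP-1, C/EBP and Maf factors and immediate early genes, whose transcription is switched on by activity or growth factors, showed the largest median of any list in Chx against WT. Of the 8 tested, 6 lay above the match, and the median difference was 0.53 over the 8 and 0.00 over all 448 members. Arc (chr15:74671182-74672372, minus strand), which encodes a postsynaptic protein that forms capsid-like particles, had 415, 71 and 165 CDS reads in Chx, Harr and WT. Its log2 ratio in Chx against WT was 1.05 (0.79 to 1.32), and it was the only member called. Jund had 5374, 996 and 2971 reads and a ratio of 0.58 (0.51 to 0.64), Junb 2820, 687 and 1469 and 0.66 (0.57 to 0.76), and Jun 2690, 735 and 2039 and 0.12 (0.04 to 0.21). None of these 3 reached the size of a call in Chx against WT, and Junb was higher in Harr than in WT at 1.05 (0.91 to 1.18). Outside the list, among members with at least 200 CDS reads in Chx and WT together, the ratios of Tmem121 (278, 27 and 122 reads) and Itprip (342, 58 and 169), at 0.91 (0.60 to 1.23) and 0.74 (0.47 to 1.01), came next after Arc. At the low end, with the same minimum, were Armcx6 (284, 43 and 398) at -0.76 (-0.99 to -0.54), Exo5 (114, 31 and 152) at -0.69 (-1.06 to -0.33) and B3gnt2 (96, 23 and 127) at -0.68 (-1.08 to -0.29).

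The Armcx, Gprasp, MAGE, Tspyl and Nap1l proteins, many of them encoded on the X chromosome or imprinted and derived from retroposed or retrotransposon sequences, had 36 members and 28 tested. Of the 28, 21 lay below the length match in Chx against WT, with a median difference of -0.15 over all 28. In Harr against Chx 2 were higher (Magel2 and Rtl3) and 4 lower (Ndn, Zcchc12, Pnma2 and Pnma1), and in Harr against WT the median difference was -0.39 with 18 of 28 below. Gprasp1, which sorts internalised receptors, had 19264, 3686 and 19327 CDS reads in Chx, Harr and WT, and Ndn had 26471, 2028 and 23144. Ndn stood at -1.28 (-1.35 to -1.22) and Zcchc12 at -1.32 (-1.43 to -1.22) in Harr against Chx.

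**Figure D3:**
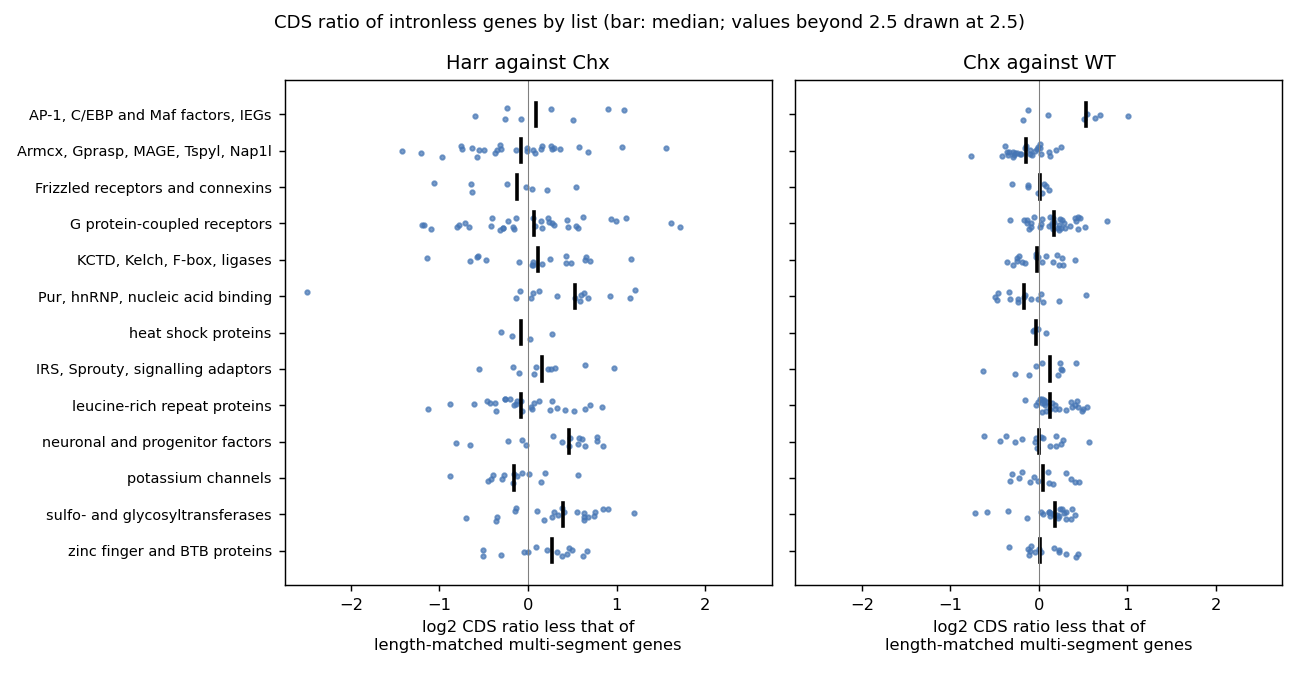
Log2 CDS ratio of each tested intronless gene less that of multi-segment genes of the same length, for Harr against Chx (left) and Chx against WT (right), by functional list. Each point is a gene and each black bar the median of a list, and the bar of the AP-1 and immediate early genes at 0.53 is the farthest to the right in Chx against WT, where the Armcx, Gprasp, MAGE, Tspyl and Nap1l list lies at -0.15.

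In Harr, the balance of reads lay farther toward the 5′ UTR in nearly all intronless genes that could be measured. Their summed 5′ UTR reads made up 33.3% of all reads in the 3 regions in Harr, compared with 9.346% in Chx and 6.996% in WT, where multi-segment genes gave 27.3%, 7.55% and 5.38%. These shares are not matched on length: per nucleotide, the 5′ UTR reads of members came to 2.24, 0.453 and 0.331 times the CDS density in Harr, Chx and WT, below the 3.50, 0.736 and 0.515 of multi-segment genes, whose 5′ UTRs are shorter. Per gene, the log2 odds ratio (5′ UTR over CDS, Harr against Chx) had a median of 2.41 over 437 members with at least 10 reads in each region. It was called higher in 393 (89.4% of all genes were) and lower in 0 (0.103%). In Harr against WT the median was 2.93 over 421 members, 395 higher (94.3% of all genes) and 0 lower (0.136%). The shares of members called were close to those of all genes.

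The members differed from spliced genes in the size of the shift between WT and the others. In Chx against WT the median log2 odds ratio was 0.43 over 429 members, 0.23 below genes of the same CDS length (difference -0.23, interval -0.33 to -0.16). It was higher in 80 members (18.6%, against 30.4% of all genes and 30.9% in the length match) and lower in 7 (1.63%, against 1.08%). In Harr against WT the difference was -0.38 (-0.51 to -0.19) and in Harr against Chx -0.09 (-0.17 to -0.03). The Harr against Chx interval included 0 with a minimum of 1000 CDS reads (-0.05, -0.18 to 0.06). It also did so without genes whose exons overlap another gene (-0.07, -0.17 to 0.03). Members had longer 5′ UTRs, and 21.7% of them reached 500 nucleotides against 10.51% of multi-segment genes. Matched on the length of the 5′ UTR as well as the CDS, the differences were -0.16 (-0.20 to -0.04) in Chx against WT, -0.16 (-0.29 to -0.06) in Harr against WT and -0.06 in Harr against Chx. The Chx against WT median was 0.80 in members with a 5′ UTR under 200 nucleotides, 0.49 at 200 to 500 and 0.05 at 500 or more, and the multi-segment genes gave 0.92, 0.62 and 0.25.

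**Figure D4:**
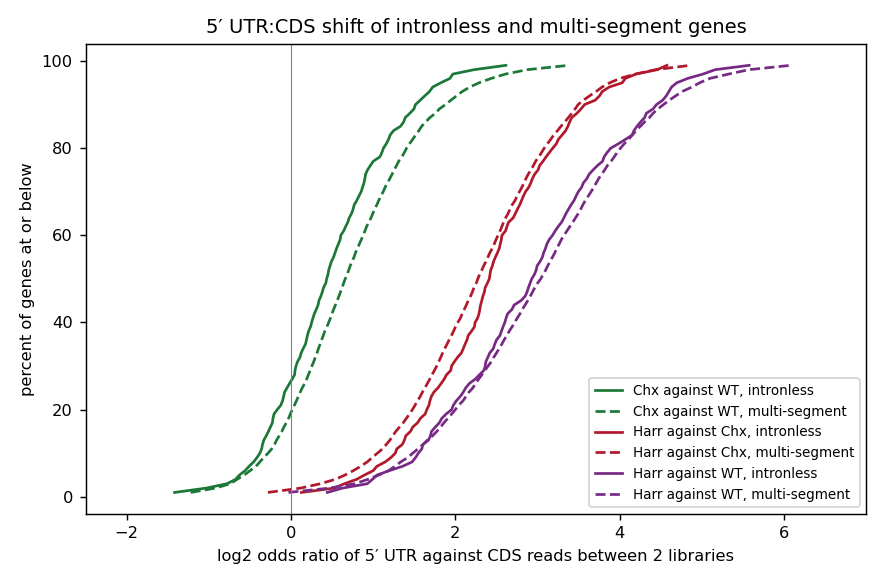
Cumulative percent of genes at or below each log2 odds ratio (5′ UTR over CDS reads), for intronless genes (solid) and multi-segment genes of at least 900 nucleotides (dashed), in Chx against WT (green), Harr against Chx (red) and Harr against WT (purple). The Harr curves lie well to the right, with intronless medians of 2.41 and 2.93, and in Chx against WT the intronless curve, median 0.43, lies to the left of the dashed one.

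Ubb had the strongest 5′ UTR shift among the densely read genes named above. Its 5′ UTR held 1882, 4893 and 820 reads in Chx, Harr and WT, a log2 odds ratio of 5.59 ± 0.06 (standard error from the counts) in Harr against WT. Fen1 reached 5.29 ± 0.38 in Harr against Chx and Gpr3, with 13, 49 and 5 reads in its 5′ UTR, 5.55 ± 0.50. Ttc30a1, an intraflagellar transport gene, had 4, 19 and 9 reads there and 4.58 ± 0.78. Kcnj10, the inward rectifier of astrocytes, had 12, 19 and 1 reads there and 6.53 ± 1.24 in Harr against WT, which rests on the single WT read.

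The Armcx, Gprasp, MAGE, Tspyl and Nap1l list had the largest 5′ UTR shift of the lists under harringtonine that kept at least 5 tested members. Its median log2 odds ratio was 3.34 in Harr against Chx, 0.71 above the length match, and 4.16 in Harr against WT, 0.74 above, with 27 of 28 members called higher in each (89.4% and 94.3% of all genes were). Ndn had 840 reads in its 5′ UTR in Chx, 1052 in Harr and 486 in WT (4.03 ± 0.07 in Harr against Chx), and Zcchc12 3368, 5183 and 2143 (4.37 ± 0.06). Gprasp1 had 1875, 3379 and 1207 reads (3.24 ± 0.05), 1.52 above genes of its length. The list lay at 0.60 in Chx against WT, 0.07 below the match (difference -0.07). The leucine-rich repeat proteins and the sulfotransferases and glycosyltransferases lay below the match in Harr against WT, by 0.97 and 1.23 (differences -0.97 and -1.23), and the nucleic acid binding proteins lay above it in Chx against WT, at 1.38 with a difference of 0.71 and 8 of 13 called higher (30.4% of all genes were).

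A few genes kept or lost their 5′ UTR reads in Harr. Usp27x, a deubiquitinase gene, had 350 reads in its 5′ UTR in Chx, 69 in Harr and 254 in WT beside 485, 167 and 369 in its CDS, a log2 odds ratio of -0.80 ± 0.23 in Harr against Chx. Mgat3, a glycosyltransferase gene, had 68, 9 and 37 reads there (-0.67 ± 0.52), and Gm42517 71, 26 and 29 (0.15 ± 0.36). Slc35a4, whose transcript is known for an upstream reading frame that makes a mitochondrial protein, had 372, 61 and 501 reads in a 5′ UTR of 1099 nucleotides and 147, 22 and 94 in its CDS. Its odds ratio was 0.11 ± 0.38 in Harr against Chx and -1.07 ± 0.21 in Chx against WT. Znhit2, with a 5′ UTR of 35 nucleotides, had 81, 32 and 9 reads there and 2.53 ± 0.51 in Chx against WT, and the zinc finger genes Zfp553, with 78, 92 and 10, and Zfp865, with 18, 18 and 2, had 2.66 ± 0.48 and 2.64 ± 0.98. Gpr61, an orphan receptor with 31, 47 and 77 reads in the 5′ UTR, was lowest in Chx against WT, at -1.48 ± 0.36, of members with at least 20 reads in the 5′ UTR and 200 in the CDS of that pair. Gm10358, a copy of Gapdh with 24, 52 and 39, lay at -1.06 ± 0.38.

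More reads in the 5′ UTR than in the CDS were found in 10 of the 448 tested members in WT (2.23%, against 1.09% of tested multi-segment genes), 12 in Chx (2.68%, against 1.32%) and 164 in Harr (36.6%, against 21.9%). These shares are not matched on length, and members had longer 5′ UTRs. Per nucleotide, 5′ UTR over CDS density was lower in members, at 2.24 against 3.50 in Harr and 0.331 against 0.515 in WT. The 10 in WT, named after their values were seen, included 4 orphan G protein-coupled receptors: Gpr22, Gpr85, Gpr173 and Gpr21. The others were Slc35a4, B3gnt5, Chml, Zfp672, Mgat1 and Tlnrd1. Gpr22 had 936, 771 and 1023 reads in a 5′ UTR of 1443 nucleotides and 607, 99 and 433 in a CDS of 1299. Gpr85 had 974, 678 and 927 reads in a 5′ UTR of 1215 nucleotides.

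Reads in the 3′ UTR were few, so that fewer genes could be compared. In Harr against Chx the log2 odds ratio of 3′ UTR against CDS reads had a median of 3.77 over 154 members, 0.67 below the length match (difference -0.67, interval -1.05 to -0.41). Of these members 144 were higher (93.5%, against 86.5% of all genes and 92.0% in the length match) and 0 lower (1.29% of all genes). In Harr against WT the median was 2.53 over 168, with a difference of -0.26 (-0.56 to 0.03). Here 145 were higher (86.3%, against 79.8% of all genes and 86.2% in the length match) and 0 lower (1.5% of all genes). In Chx against WT it was -0.94 over 125, with 44 lower (38.9% of all genes, and 47% of long spliced genes) and 3 higher (0.742%), and the difference of 0.28 had an interval of -0.03 to 0.54. The summed 3′ UTR reads of members made up 1.03%, 2.31% and 1.16% of the reads in Chx, Harr and WT.

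Retrocopies of known genes were set beside multi-exon relatives in 26 pairs, with Aldoa and Gapdh each serving in more than 1, and the pairs were chosen after their values had been seen and serve as a description. In 24 pairs the copy had at least 100 CDS reads. Of these, 9 copies had under 10 reads in the 5′ UTR per 1000 in the CDS, and 0 of the relatives did. Aldoart2 (chr12:55565292-55566386, plus strand), a copy of the aldolase gene Aldoa, had 3950, 203 and 3084 CDS reads in Chx, Harr and WT and not a read in its annotated 5′ UTR of 53 nucleotides. Aldoa had 22947, 1995 and 20264 CDS reads and 314, 434 and 317 in the 5′ UTR. Only 14.9% of the 25-base words of the Aldoart2 CDS were found in Aldoa, although the part of reads from other copies in this count was not tested. Csl, a copy of the citrate synthase gene Cs, had 1973, 174 and 1479 CDS reads and 0, 2 and 1 in the 5′ UTR, where Cs had 15338, 1476 and 11061 and 688, 1664 and 461.

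Other copies had many reads in the 5′ UTR. Hnrnph2 had 3801, 1065 and 4006 CDS reads and 168, 439 and 193 in its 5′ UTR in Chx, Harr and WT, and 2.34% of its words occurred in Hnrnph1 but 76.8% in some other gene, so that its reads too are not assigned with certainty. Chml and Zrsr1 had 1169 and 1012 reads in the 5′ UTR per 1000 in the CDS over the 3 libraries. Other copies were nearly identical to their relative, and their reads cannot be assigned with certainty. Eno1b differed from Eno1 at 8 of 1305 CDS positions (99.4% identical) and had 11008, 1131 and 9358 CDS reads, more than the 5669, 579 and 4426 of the multi-exon gene. In the 5′ UTR the order was the opposite, with 163, 40 and 72 reads for Eno1b and 544, 817 and 532 for Eno1. Gm9774 differed from Adrm1 at 3 positions (99.8% identical) and had 1567, 193 and 1175 CDS reads against 3212, 421 and 2425, and here the 5′ UTR of the copy held more, 338, 589 and 110 against 32, 23 and 6. Gm3839 and Gapdh, 99.3% identical, had 699, 19 and 588 and 819, 26 and 631 CDS reads, and the 5′ UTR of the copy held none.

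**Figure D5:**
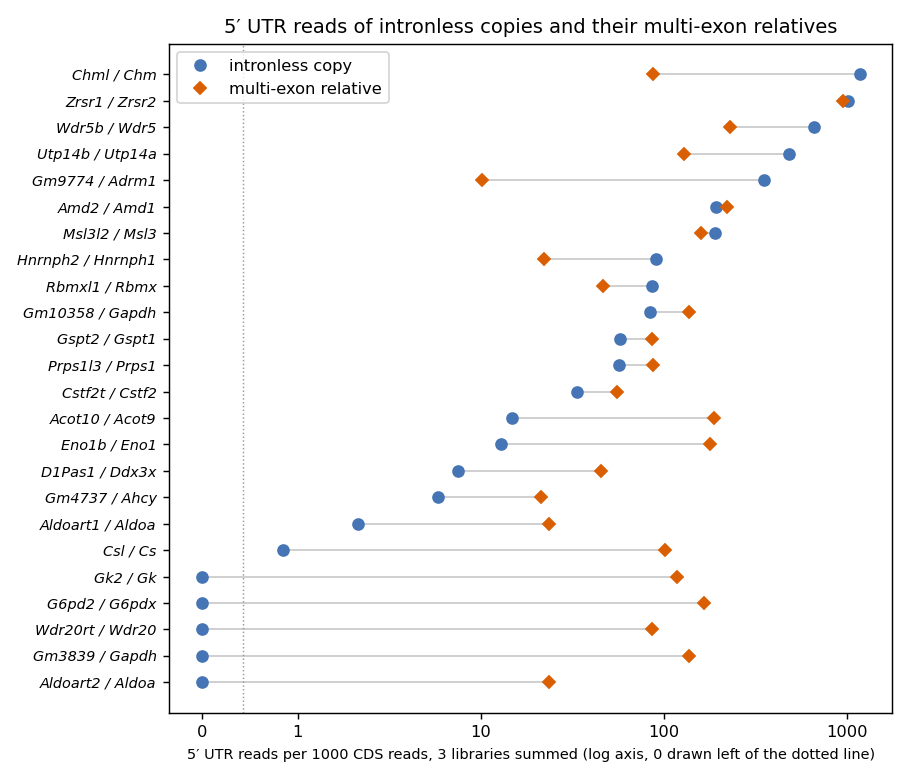
Reads in the 5′ UTR per 1000 CDS reads, summed over the 3 libraries on a log axis, for 24 intronless copies (blue circles) and their multi-exon relatives (orange diamonds), with 0 drawn to the left of the dotted line. The copies range from 0 in Aldoart2 and 4 others to 1169 in Chml, whereas every relative lies at or above the 10.1 of Adrm1.

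A CDS read without any 5′ UTR read was no commoner among members in general. It was found for 11 of 448 tested members (2.46%) and 194 of the tested multi-segment genes (2.51%). The 11 were Aldoart2, Gm5580, Gm3839, Lor, G6pd2, Gm8994, Ccdc96, Wdr20rt, Pabpc2, Rimbp3 and Gk2, named after their values were seen. Lor, the loricrin gene of the skin barrier, with 273, 80 and 178 CDS reads, shared only 0.835% of its words with other genes, and Ccdc96 and Rimbp3 shared none.

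The members had further features in common that their choice did not use. At least 1 UTR was listed in several segments in 523 of them (58.7%, against 41.6% of multi-segment genes), so an uninterrupted CDS often stood in a spliced transcript. At least 50% of the 25-base words of the CDS occurred in another gene in 135 members (15.2%, against 6.87%), 116 lay on the X chromosome (13.02%, against 3.29%), and 205 had a CDS GC content of at least 60% (23.0%, against 10.4%). A purine at position -3 was missing in 19.4%, against 14.3%, but among tested genes in 14.3% against 13.9%. The GC content moved with the Chx against WT ratio: members of at least 60% lay 0.15 above the length match, with 70.1% of them above, and those under 50% lay 0.19 below, with 27.9% above. Multi-segment genes in the same classes had medians of 0.14 and -0.02. Matched on GC as well as length, the members differed by -0.03 (-0.07 to -0.000693, an interval just below 0) in Chx against WT, 0.10 (0.05 to 0.14) in Harr against Chx and 0.04 (-0.01 to 0.10) in Harr against WT. The X-linked members lay 0.11 below their match in Chx against WT (difference -0.11) and 0.17 above it in Harr against Chx, with 66.7% above.

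The length limit divided a continuous range. Just below it, at 897 nucleotides, were 5430427O19Rik with 1, 0 and 0 CDS reads in Chx, Harr and WT, the mitochondrial carrier gene Slc25a51 with 521, 86 and 392, and Ch25h, the cholesterol 25-hydroxylase gene, with 14, 8 and 5. Just above it were Capza3 at 900 nucleotides and Ffar1 at 903, with 0 reads in each library, and Spry4 at 903 with 1237, 147 and 870. A count of 0 allows up to 0.0840, 0.308 and 0.0993 reads per 1000000 in Chx, Harr and WT. The microglial markers Cx3cr1 and P2ry12 are themselves members and had 22, 0 and 8 and 0, 0 and 4 CDS reads.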

How the data were processed

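Per the labels, the libraries were aligned to mm10. For every library the authors deposited 3 tables (5′ UTR, CDS and 3′ UTR, 9 in all), with 1 line per transcript segment. Their counts are whole, unnormalized reads of a segment as deposited. In the deposited files, coverage signal is that count per nucleotide, and deposited RPKM is the count per kilobase and per 1000000 aligned reads. Per the file headers, reads of 25 to 100 nucleotides were counted at the 5′ end with an offset of 0, by Plastid, from alignments whose names mark ribosomal reads and duplicates as removed. How duplicates were recognised is not given in the sources used here, and their removal can lower counts where reads are dense. The study's methods pair Plastid counts with Rsubread alignment to mm10 in a related experiment, and describe for these treatments a TopHat alignment to the transcriptome that let a read keep many alignments and placed reads from the 3′ end. Which alignment these tables rest on, and its rule for multi-mapping reads, is not given in the sources used here. Counts were used throughout.

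Transcripts were joined to GENCODE genes (99.1% of 142446 identifiers matched with their version) and segments were summed in the longest transcript of each gene. CDS log2 ratios were taken per 1000000 CDS reads with 0.5 added to each count, over genes with at least 100 CDS reads (11447 genes). Exact binomial 95% intervals, Wilson intervals and standard errors of log2 odds ratios cover counting error only. Matched values were medians over multi-segment genes within 10% of the CDS length. Shared words were 25-base words found in any other gene's transcripts. The steps were tested on simulated counts. Members and lists were chosen with earlier results of these data known. Genes were named by rule: the 10 densest in WT, the 3 most read of each list with at least 5 tested members, the 3 highest and lowest of each ratio above read minimums, the genes around the length limit and members among the markers. Others are genes called, or were picked after their values were seen. A few genes that the rule names are not reported here. Python 3.11.15 with numpy 2.4.6, pandas 2.3.3 and scipy 1.17.1, bedtools 2.31.1, and R 4.3.3 with edgeR 4.0.16 (for TMM factors only) were used. Alternatives changed scaling, minimums, matching, transcript choice and gene sets.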

Additional observations from a re-analysis of the deposited data

How the results depend on the processing

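The 30 summary values were recomputed under 15 alternatives, which gave 273 values: 219 kept their value within its counting or gene interval or a count within 1.5 times, 54 moved, and 0 that lay beyond the interval on one side of 0 changed sign. Medians whose interval included 0 did change sign: the CDS median in Harr against Chx turned from -0.03 to 0.10 (0.04 to 0.21) with a minimum length of 1200 nucleotides and to 0.043 with a pseudocount of 5, and in Harr against WT from 0.03 to -0.48 with all aligned reads as the total and to -0.02 with TMM factors. Scaling by TMM factors or by the median of ratios and a length match of 20% moved none. No paired analysis was possible because each treatment has 1 library, and no library could be left out for the same reason. With a minimum CDS length of 1200 nucleotides, the density lay below the match by 0.59, 0.49 and 0.74 (-0.59, -0.49 and -0.74) in Chx, Harr and WT, the share of CDS reads was 3.12%, 4.33% and 3.33%, 18 members were higher and 9 lower in Harr against Chx and 21 and 10 against WT, 0 were higher in Chx against WT, and the medians in Harr against Chx and Harr against WT were 0.10 and 0.18 for the CDS and 2.28 and 2.64 for the 5′ UTR. With all aligned reads as the total, 2 members were higher and 106 lower in Harr against Chx, 6 and 90 in Harr against WT, and the CDS medians were -0.58, -0.48 and 0.080 in Harr against Chx, Harr against WT and Chx against WT. With a minimum of 10 CDS reads, 5 were higher and 3 lower in Chx against WT. With a minimum of 1000, 0 were higher in Chx against WT, 6 higher and 17 lower in Harr against Chx, 9 higher and 13 lower in Harr against WT, and the 5′ UTR median in Harr against WT was 3.07. With a pseudocount of 5 the 3′ UTR medians were -0.74 in Chx against WT and 3.33 in Harr against Chx, the 5′ UTR medians 2.30 in Harr against Chx and 2.60 in Harr against WT, with 24 higher and 24 lower in Harr against Chx and 33 and 21 in Harr against WT. Without genes whose exons overlap another gene, members and spliced genes alike, the density was -2.68 in Chx and -2.48 in Harr. In that set 12 members were higher in Harr against Chx and 14 in Harr against WT. Members took 4.10%, 4.40% and 4.15% of the CDS reads of the genes kept. With only genes under 10% shared words kept, members and spliced genes alike, the density was -0.97 in Harr. Members then took 4.03%, 4.07% and 4.11% of the CDS reads of the genes kept. Of all CDS reads, the 374 tested members under 10% shared words took 3.13%, 3.33% and 3.13%. The most-read transcript gave shares of 4.26%, 5.15% and 4.52%, and leaving out the 50 most read genes 3.35%, 3.29% and 3.37%. Genes with at least 100 reads gave densities of -0.42, -0.39 and -0.33. Of 2 alternatives added after seeing the data, the match on both lengths gave a 5′ UTR difference of -0.16 in Harr against WT, and the match on GC and length left each value within its interval, though in Harr against WT its own interval then included 0 (0.04, -0.01 to 0.10) and in Chx against WT no longer did (-0.03, -0.07 to -0.000693). The cause of these moves was not tested. Depth limits Harr most, where 3 counts are 0.308 reads per 1000000.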
